A study of Homo sapiens with 6 samples.

Results

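The 1907 peaks described here were called in the UCHL1 ChIP of HEK293T cells, on the 22 autosomes. They shared no base with any peak called in DU 145 cells. They were taken from 2025 autosomal peaks of a list of 2196, so 94.2% of the autosomal HEK293T peaks had no counterpart in DU 145, and the other 118 shared at least 1 base with a DU 145 peak. This share depends on how many peaks were called in DU 145. A further 171 HEK293T peaks lay on X or Y and were not used. The 3 deposited lists held 6813 peaks in all. The peaks were thus selected on the peak calls, that is on the positions called in each list, and all values from the same calls (score, fold enrichment, tags and FDR) are given as a description.

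UCHL1 is a deubiquitinating enzyme, a ubiquitin C-terminal hydrolase that is abundant in neurons and is also found in some cancers, and the study asked where in the genome it is associated with DNA. Each peak list came from 1 UCHL1 ChIP library called against 1 input library, so there were 6 libraries in 3 conditions, and no condition had a replicate. HEK293T cells, an embryonic kidney line that carries the SV40 T antigen and that the labels assign to the neuronal lineage, were cross-linked with 1 mM DSP, which joins proteins to each other, and then with formaldehyde, and their chromatin was cut to mononucleosomes with micrococcal nuclease. DU 145 cells, a prostate cancer line from a brain metastasis, were treated in the same way (1274 autosomal peaks) or were cross-linked with 1% formaldehyde alone and sonicated (2574 autosomal peaks). The labels give 1% formaldehyde for the dual treatment too, whereas the methods of the study give a lower concentration. A figure legend of the study lists the HEK293T samples under formaldehyde, not under DSP with formaldehyde. The labels and the methods, which give the dual treatment for HEK293T, were followed here. The same mouse monoclonal antibody to UCHL1 was used throughout, and none of the 6 libraries is labelled as coming from cells that lack UCHL1. With 1 library per condition, the cell line, the library and its depth cannot be told apart as sources of a difference between lists, and no difference between lists has a replicate check. The ranges after shares are 95% intervals by Wilson's method and take in only the error of counting.

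Protein-coding genes are transcribed from start sites that usually lie in nucleosome-depleted, CpG-rich DNA, and micrococcal nuclease leaves mainly the DNA that is wrapped on nucleosomes. Satellite repeats beside the centromeres, telomeric hexamer repeats and tandem gene arrays are present in many near-identical copies, so that a short read from one copy may match several places in the reference.

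The sequences below show the kinds of DNA in the set, each as the GRCh37 (hg19) plus strand from 5′ to 3′, cut to at most 200 bases around the summit or the motif. Capitals mark runs of at least 3 C or 3 G unless stated. The first 3 are promoter-class peaks, chosen by score with 1 chromosome left out. The score is the value that MACS, the peak caller, gives to each peak, and a higher score stands for a smaller p-value.
RPS2, chr16:2013869-2014068: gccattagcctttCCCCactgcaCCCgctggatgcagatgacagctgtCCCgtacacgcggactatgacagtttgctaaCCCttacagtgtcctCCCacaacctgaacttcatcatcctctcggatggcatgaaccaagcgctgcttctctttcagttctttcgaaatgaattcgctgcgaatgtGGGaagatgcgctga
RPL13, chr16:89628526-89628725: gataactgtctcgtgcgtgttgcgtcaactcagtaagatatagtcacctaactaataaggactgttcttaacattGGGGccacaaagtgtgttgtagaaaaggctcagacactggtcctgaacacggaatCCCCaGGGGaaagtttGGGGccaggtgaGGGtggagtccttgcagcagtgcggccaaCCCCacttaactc
CPNE7, chr16:89654418-89654549: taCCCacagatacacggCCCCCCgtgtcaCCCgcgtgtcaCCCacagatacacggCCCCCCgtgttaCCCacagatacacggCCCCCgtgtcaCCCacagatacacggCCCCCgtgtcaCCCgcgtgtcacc
The RPS2 and RPL13 stretches have a GC content of 52% and 50.5%, and the 50 bases around each summit occurred 1 time in the genome. Only exact matches were counted, whereas the mapping of the study allowed mismatches. The CPNE7 stretch is a tandem repeat with a GC content of 65.9%, and the 50 bases around its summit occurred 3 times in the genome. The next 3 are the highest-scoring peak with a polypurine or polypyrimidine run of at least 30 bases (the run in capitals) and with a G-quadruplex motif, and the highest-scoring peak of the 5S ribosomal RNA array on chromosome 1.
Polypyrimidine run, chr1:161435629-161435828: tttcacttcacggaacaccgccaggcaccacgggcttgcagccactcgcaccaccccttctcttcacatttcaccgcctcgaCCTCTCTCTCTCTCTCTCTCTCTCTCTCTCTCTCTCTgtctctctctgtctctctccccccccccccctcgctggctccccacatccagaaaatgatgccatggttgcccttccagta
TEX19, chr17:80317253-80317452: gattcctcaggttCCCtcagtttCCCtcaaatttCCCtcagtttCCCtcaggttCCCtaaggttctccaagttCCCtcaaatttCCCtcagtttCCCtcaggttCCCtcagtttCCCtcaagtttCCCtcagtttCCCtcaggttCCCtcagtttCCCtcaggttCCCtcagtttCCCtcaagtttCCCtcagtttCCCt
5S array, chr1:228746800-228746999: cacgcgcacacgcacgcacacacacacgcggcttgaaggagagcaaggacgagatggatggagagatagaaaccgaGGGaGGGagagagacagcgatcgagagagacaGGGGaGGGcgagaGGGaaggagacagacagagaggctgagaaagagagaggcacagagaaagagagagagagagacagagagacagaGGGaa
The last 2 come from a stretch of chromosome 13 where no peak lay in a protein-coding gene and from the edge of the chromosome 4 centromere, the latter with the pentamer GGAAT in capitals.
Chromosome 13, chr13:62515751-62515922: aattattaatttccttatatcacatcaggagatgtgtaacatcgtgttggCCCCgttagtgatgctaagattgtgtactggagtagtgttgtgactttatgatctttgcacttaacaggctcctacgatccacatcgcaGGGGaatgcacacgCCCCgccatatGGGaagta
Chromosome 4, chr4:49657826-49658025: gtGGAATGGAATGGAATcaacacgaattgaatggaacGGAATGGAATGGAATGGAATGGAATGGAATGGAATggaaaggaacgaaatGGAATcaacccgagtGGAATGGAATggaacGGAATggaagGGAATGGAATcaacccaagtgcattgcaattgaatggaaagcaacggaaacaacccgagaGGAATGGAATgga
The highest-scoring coding exon peak, in ACTG1, lay wholly in bases that some transcripts annotate as untranslated, and its sequence is not shown.

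Relative to the bases available, the HEK293T-only peaks were more frequent in promoters and exons and less frequent in introns. By the midpoint of the peak, 211 of 1907 (11.1%, 9.73 to 12.6) lay in a promoter, taken as 1000 bp upstream to 100 bp downstream of the start of any transcript of a protein-coding gene, where such windows cover 2.78% of the autosomal bases. A further 76 (3.99%, 3.2 to 4.96) lay in a coding exon, against 1.04% of bases, and 99 (5.19%, 4.28 to 6.28) in another exon, against 2.13% of bases. Introns held 436 peaks (22.9%, 21 to 24.8), below their 41% of bases, and 1085 peaks (56.9%, 54.7 to 59.1) were intergenic, against 53% of bases. The DU 145 peaks that shared no base with HEK293T were fewer in promoters: 3.93% (2.96 to 5.21) of the 1169 dual cross-linked peaks and 2.51% (1.96 to 3.19) of the 2513 formaldehyde peaks. Coding exons held 1.97% (1.31 to 2.94) and 0.159% (0.0619 to 0.409) of these lists. None of the 118 shared HEK293T peaks lay in a promoter or a coding exon, which allows a share of up to 3.15% by the Wilson interval.

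Most of the promoter-class peaks belonged to transcript starts other than the canonical one. When the start of the canonical transcript of each gene alone was counted, a choice made after the data were seen, the share fell to 1.89% (36 peaks, 1.37 to 2.6), against 0.752% of the bases. Of the 211 promoter peaks, 107 also lay in an annotated exon of a protein-coding gene, and 13 (6.16%) lay in CpG-dense DNA, defined as a 500 bp window with a GC content of at least 55% and an observed to expected CpG ratio of at least 0.65. Relative to the canonical start, 360 peaks lay within 5000 bp downstream and 135 within the same distance upstream. In the first 500 bp downstream there were 13 peaks and in the 500 bp upstream 10 peaks, which is 1.96 and 1.61 times their share of bases. Farther upstream there were 18 peaks from 500 bp to 1 kb and 49 from 1 to 2 kb, 3.01 and 4.19 times. From 500 bp to 1 kb downstream there were 55 peaks, 8.33 times the share of bases, and from 1 to 2 kb downstream 130 peaks, 9.91 times. From 2 to 5 kb downstream there were 162 peaks, 4.26 times. The dual DU 145-only peaks stood at 1.73 and 1.24 times in the intervals from 500 bp to 1 kb and from 1 to 2 kb downstream, with 7 and 10 peaks.

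**Figure D1:**
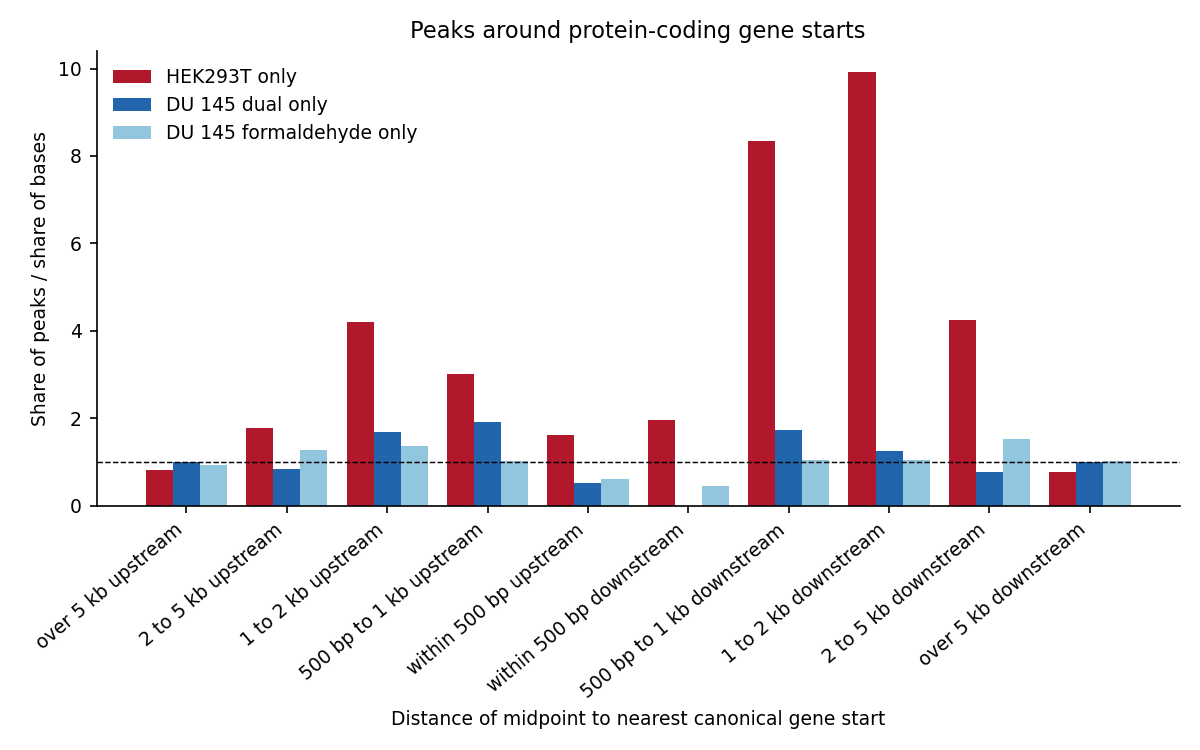
The share of peaks in each interval of distance from the nearest canonical protein-coding start, divided by the share of autosomal bases in that interval (dashed line at 1), for the HEK293T-only peaks and for both sets of DU 145-only peaks. The HEK293T bars reach 9.91 from 1 to 2 kb downstream and stand at 1.96 in the first 500 bp.

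Of the peaks inside genes, the share on exons was above the exon share of the combined length of those genes. Of 798 peaks in the body of a protein-coding gene, 282 (35.3%, 32.1 to 38.7) had their midpoint in an exon, while exons of any transcript made up 6.75% of the combined length of the 620 genes. Long genes weigh most in the combined length, whereas genes with many peaks weigh most in the count of peaks. These values therefore do not show whether exons are preferred inside a gene. The genes with a peak were somewhat short, with a median length of 19974.5 bp over the 658 genes with a peak in the promoter or body against 27568 bp over all 19229 autosomal protein-coding genes. A peak lay in the promoter of 176 genes (0.915% of those genes) and in the promoter or body of 658 (3.42%). There were at least 2 peaks in 171 genes and at least 3 in 63.

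Ribosomal protein genes, which encode the structural proteins of both ribosomal subunits, held peaks in the highest share of the lists with over 13 genes. Of 82 autosomal ribosomal protein genes, 25 (30.5%, 21.6 to 41.1) had a peak in the promoter or body, against 3.42% of all protein-coding genes, and 13 (15.9%) had one in the promoter, against 0.915%. Neither set of DU 145-only peaks touched any of the 82 genes, while these sets touched 2.91% (dual) and 6.38% (formaldehyde) of all protein-coding genes. These genes are short, with a median length of 5441 bp. The promoter count includes transcript starts other than the canonical one. The 25 genes held 49 peaks on 12 chromosomes, and all 49 lay downstream of the canonical start, from 178 to 5895 bp and at a median of 1387 bp. Peaks were counted only in the gene body or within 1000 bp upstream of a transcript start, so the count favours the downstream side. In 36 cases the midpoint was in an exon of the gene. Near-identical copies of these sequences elsewhere in the genome were not counted. Only 11 of the 49 peaks, in 5 genes, had an FDR of at most 5%, the FDR being the authors' percentage from MACS, and the other 20 genes, RPS2 among them, rest on peaks above that FDR.

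RPL13, which encodes a protein of the large ribosomal subunit, had 9 peaks within its 3866 bp, more than any other gene. They lay 1227 to 3446 bp downstream of its start, all in exons of some transcript, with fold enrichments over input from 11.04 to 22.09 and 164 tags in total, a tag being a mapped read. The strongest, whose sequence is shown above, had 44 tags, a fold of 22.09, a score of 264.13 and an FDR of 4.55%. RPS2, which encodes a small subunit protein, had 3 peaks, and the strongest (chr16:2013605-2014278) had 84 tags, a fold of 14.62 and the highest promoter score of the set, 321.81, at an FDR of 6.67%. RPL8 had 3 peaks, with scores of up to 199.71, and RPL13A had 5, with scores of up to 198.24. RPLP0 had 1 peak with a score of 112.08. At the weak end, RPL41 and RPL35A had 1 peak each, with scores of 50.63 and 50.67.

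Translation factors and splicing factors had peaks in fewer genes. Of 53 EIF genes, 6 (11.3%, 5.29 to 22.6) had a peak, namely EIF4A1, EIF1, EIF4G1, EIF4A2, EIF5A and EIF4A3. EIF4A1, an RNA helicase of translation initiation, had 5 peaks from 1314 to 2830 bp downstream of its start, the best with 28 tags, a fold of 16 and an FDR of 0.78%. Of 36 SRSF and HNRNP splicing factor genes, 6 (16.7%, 7.87 to 31.9) had a peak. HNRNPH1 had the highest score among them, 157.39, with 31 tags 1888 bp downstream of its start, and HNRNPA1 had 2 peaks with scores of up to 56.88. HNRNPUL2 and its readthrough gene HNRNPUL2-BSCL2 were counted apart but share their peaks. SRSF2 had 1 peak (score 88.66) and HNRNPAB 2 (up to 75.45). The DU 145-only peaks touched 0 (dual) and 3 (formaldehyde) of the EIF genes (5.66% for formaldehyde) and 2 (5.56%) and 1 (2.78%) of the splicing factor genes, beside the 2.91% and 6.38% of all genes.

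Some other genes were chosen after their values were seen, and their peaks are given as values only. EEF2, the translocase of translation elongation, had 5 peaks and a best score of 202.28 at 39 tags. ACTG1, which encodes gamma actin, had 5 peaks, and the best, in a coding exon, had 30 tags, a fold of 19.33 and a score of 170.47. RACK1, a ribosome-bound scaffold protein, had 5 peaks, with scores of up to 84.12. TRIM28, a transcriptional corepressor gene, had 1 peak with a score of 101.28, and HSPA1B, a heat shock protein gene, 1 with a score of 76.67. The 50 bases around the HSPA1B summit occurred 2 times in the genome, so its reads may stem from another place. The noncoding RNA genes MALAT1 and NEAT1 had 3 peaks each. The list of 28 genes named as snoRNA hosts (SNHG) was also chosen after values were seen. Of these, 5 had a peak, namely SNHG1, SNHG7, SNHG12, SNHG19 and SNHG27, with 13 peaks in all. Over all lncRNA genes, 53 of 18229 (0.291%) had a peak in an exon. That share is for exons only, and the share of lncRNA genes with a peak anywhere is not given here. It is therefore not a measure to set against the SNHG count, and no enrichment of SNHG genes can be read from 5 of 28.

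The other lists are given beside 3.42% of all protein-coding genes for HEK293T, 2.91% for the dual and 6.38% for the formaldehyde DU 145-only peaks. Zinc finger genes had a peak in 33 of 504 (6.55%, 4.7 to 9.05), 1 of them in the promoter (ZNF717, score 50.8), and the DU 145-only peaks touched 2.38% (dual) and 5.36% (formaldehyde) of them. Solute carrier genes had one in 11 of 371 (2.96%, 1.66 to 5.23), close to the share of all genes, against 2.7% and 5.93% in DU 145. SLC3A2, a solute carrier gene, had 5 peaks, of which those in the promoter class lay over the neighbouring SNHG1 and upstream of the canonical SLC3A2 start (positions -25839 and -25595 bp from it). Olfactory receptor genes had a peak in 2 of 414 (0.483%, 0.133 to 1.74), against 1.69% and 0.966% in DU 145, and 1 of 68 replication-dependent histone genes had one, H2BC6, with a score of 50.13. TUBB3 and MAP2, among 13 neuronal genes, had 1 peak each, with scores of 58.11 and 50.09. No peak lay in the promoter or body of the 6 shelterin genes, the 4 UCH family genes (UCHL1 included) or the 63 protocadherin genes. The 10 kidney development genes and the 7 prostate genes also held none. The formaldehyde DU 145-only peaks touched 2 of the shelterin genes (33.3%) and 2 of the protocadherin genes (3.17%), and the dual ones touched none of either list. At a share of 3.42%, lists of 4 to 10 genes would often hold no peak.

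**Figure D2:**
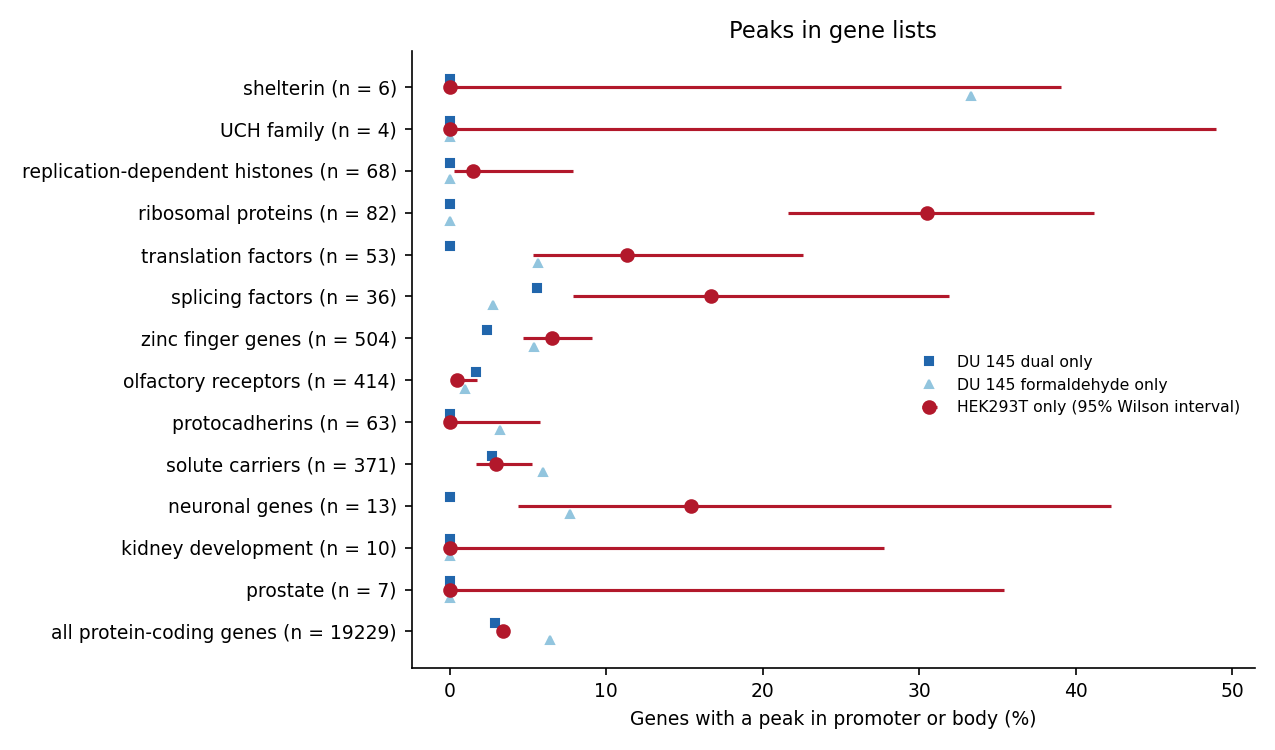
The percentage of genes in each list with a peak in the promoter or body, for HEK293T-only peaks (circles, bars are 95% Wilson intervals) and for the DU 145-only peaks of each treatment (squares and triangles), with the number of genes in brackets. Ribosomal protein genes stand at 30.5% for HEK293T and at 0 for both DU 145 sets, and all protein-coding genes at 3.42% for HEK293T.

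The set was uneven along the genome. Chromosome 19 held 201 peaks (3.6 per Mb of determined sequence, exact Poisson interval 3.12 to 4.14), chromosome 16 held 239 (3.03, 2.66 to 3.44), chromosome 13 held 227 (2.37, 2.08 to 2.7) and chromosome 17 held 138 (1.77, 1.49 to 2.1), while the autosomes as a whole had 0.71 per Mb. Chromosomes 14 and 15 held 6 and 3 peaks (0.068 and 0.0367 per Mb). Chromosomes 16, 17 and 19 are gene-rich, with 10.9, 15.3 and 26.5 protein-coding genes per Mb, and 75.3%, 78.3% and 67.7% of their peaks lay in a gene. Chromosome 22, with 12.9 genes per Mb, had 0.63 peaks per Mb. Chromosome 13 is gene-poor, with 3.37 genes per Mb, and 2.64% of its peaks lay in a gene. At a score of at least 100, chromosome 13 held 6 peaks (0.0628 per Mb), near the 0.0585 per Mb of all autosomes at that score, while chromosomes 19 and 16 held 16 and 20 (0.287 and 0.254 per Mb). In the DU 145 lists chromosome 13 had 0.272 (dual) and 0.952 (formaldehyde) peaks per Mb, beside 0.475 and 0.959 over all autosomes. The number of DU 145 formaldehyde peaks per autosome ran only from 81 to 137, whatever the length of the chromosome, whereas the HEK293T-only peaks ran from 3 to 239. Since the members are defined by absence from these lists, whatever set the number of DU 145 peaks on a chromosome also bears on membership there, and this was not tested. Copy number of the chromosomes in either line was not analysed here, and its part in these counts was not tested.

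**Figure D3:**
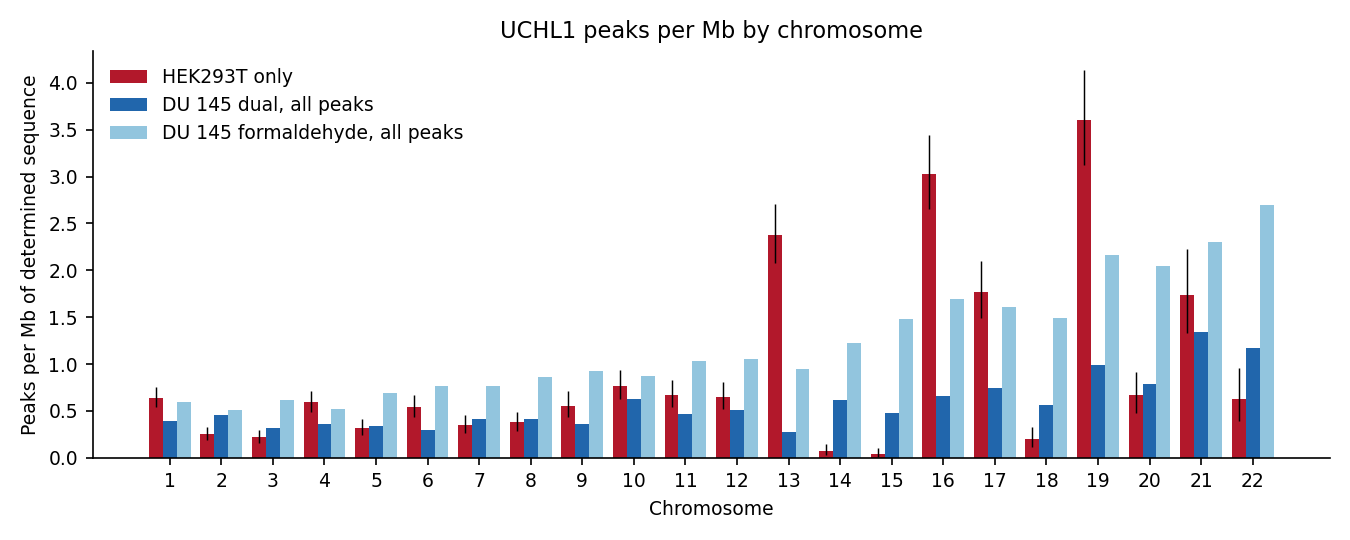
Peaks per Mb of determined sequence on each autosome for the HEK293T-only peaks (bars with exact Poisson 95% intervals) and for all peaks of both DU 145 lists. Chromosomes 19, 16 and 13 have the tallest HEK293T bars, at 3.6, 3.03 and 2.37 per Mb, and chromosome 13 has 0.272 per Mb in the dual cross-linked DU 145 list.

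Neighbouring peaks were common. Another HEK293T-only peak lay within 10 kb of 907 peaks (47.6%, 45.3 to 49.8), and of the HEK293T peaks shared with DU 145, 51 of 118 (43.2%) had another shared peak within that distance. The share was 7.36% in the dual and 3.54% in the formaldehyde DU 145-only peaks. In all, 633 peaks fell in 106 runs of at least 3. The 5 runs with the most peaks were all in repeated or pericentromeric DNA. They lay at chr21:10773782-10857289 (38 peaks), chr10:39076953-39154936 (37), chr4:49093250-49148419 (25), chr1:228746769-228782532 (20) and chr10:38776222-38818034 (19). The run on chromosome 1 covers the array of 5S ribosomal RNA genes, and 18 of its 20 summits occurred more than 1 time in the genome. Over protein-coding genes, the runs with the most peaks were 11 peaks at chr16:2011226-2023499 across NDUFB10, RPS2 and TBL3 and the 9 peaks of RPL13.

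On a wider scale, linking peaks at most 1 Mb apart, 23 stretches of at least 20 peaks held 1063 peaks (55.7%) in 62.1 Mb, which is 2.31% of the determined sequence. The stretch with the most peaks was the end of the short arm of chromosome 16 (chr16:60195-3458917), with 131 peaks, 108 of them in a gene, at 38.5 per Mb, where the DU 145 lists held 1 dual and 3 formaldehyde peaks. The second was chr13:61475011-66666991, with 122 peaks, none in a protein-coding gene, where the DU 145 lists held 0 and 4. These stretches span 3.4 and 5.19 Mb, while over all autosomes the DU 145 lists had 0.475 (dual) and 0.959 (formaldehyde) peaks per Mb. At those rates, stretches of this length would also hold few DU 145 peaks. The peaks of this chromosome 13 stretch had a median fold of 7.055 and a median of 28 tags, whereas those of the chromosome 16 stretch had 14 and 10. The stretch at chr13:81280530-90520354 held 74 peaks, also with none in a gene, and that at chr19:247718-4326539 held 70, with 57 in a gene. The ends of chromosome 17 (chr17:78118512-80895301, 60 peaks) and chromosome 9 (chr9:138805051-141055984, 33 peaks) also held stretches, with 48 and 24 peaks in a gene. Over all autosomes, 106 peaks (5.56%) lay within 500 kb of a chromosome end. The share was 26.3% of the shared peaks, 4.79% of the dual and 1.11% of the formaldehyde DU 145-only peaks. The share of bases in these end regions was not computed. Repeated DNA formed shorter groups, such as the 14 peaks at chr19:36765531-36799480 over LINC00665, all 14 with a repeated summit.

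To describe the set by location, the peaks were divided, after the data were seen, into 323 pericentromeric peaks (within 2 Mb of a centromere gap), 221 others with a repeated summit, 216 in the 3 stretches of chromosome 13, 745 in genes and 402 other intergenic peaks. The gene peaks had a median GC content of 52.5%, below the 54.55% of the sequence 1 to 2 kb away, and 40.4% of them exceeded their flanks. Those in the chromosome 13 stretches had a median of 43.1% against 34% in the flanks, and 86.6% of them exceeded their flanks. The other intergenic peaks had 46.4% against 41.2%, with 60.9% above. Over all 1907 peaks the median GC content was 47.8%, and it was 40% in 130 bp windows of the autosomes, 47.2% in the dual and 28.9% in the formaldehyde DU 145-only peaks. CpG-dense windows held 88 peaks (4.61%, 3.76 to 5.65), against 0.762% of all autosomal 500 bp windows, and 52 of these 88 were among the peaks with a repeated summit.

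**Figure D4:**
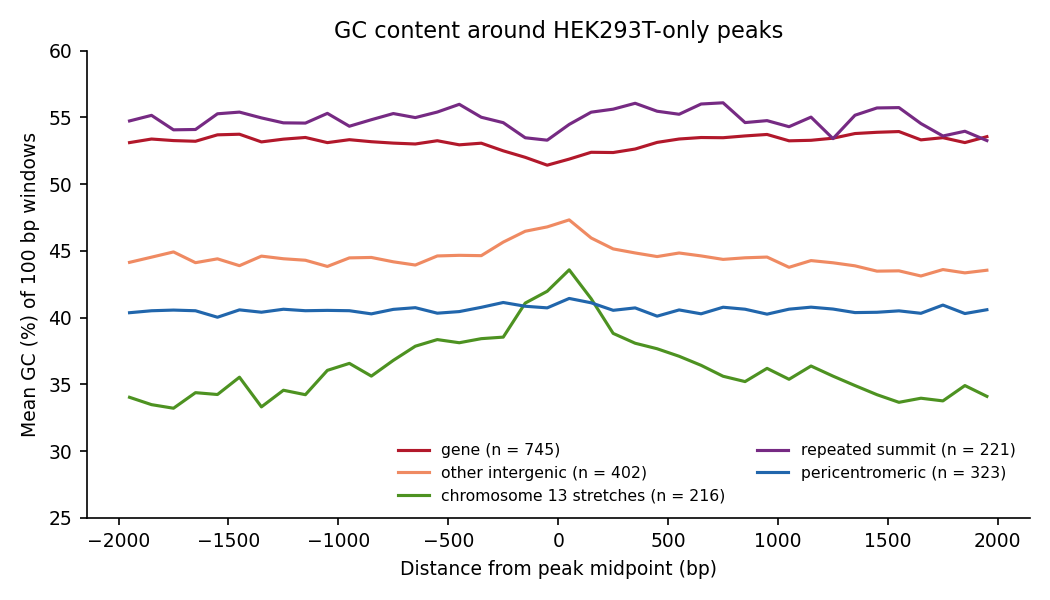
Mean GC content of 100 bp windows by distance from the peak midpoint, for the 5 groups of HEK293T-only peaks. The chromosome 13 line rises from 34% at the edge to 43.6% beside the midpoint, and the line of the gene peaks dips to 51.4%.

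The pericentromeric peaks were 16.9% of the set by number and held 63.5% of its tags. They were most numerous on chromosomes 10 (83), 4 (47) and 21 (41). They were long and broad, with a median length of 451 bp and 85 tags against 119 bp and 9 tags in genes, and had low folds, with a median of 6.59 against 14.25 in genes. The pentamer GGAAT, the repeat unit of classical satellite DNA, was present at least 2 times in a row on either strand in the 200 bp around the summit in 178 of 323 (55.1%, 49.7 to 60.4), in 0 of 216 chromosome 13 peaks and in 6 of 745 gene peaks (0.805%). Among the remaining groups, this tandem was present in 24 of 402 other intergenic peaks (5.97%) and in 4 of 221 with a repeated summit (1.81%). It was present in 0.0982% of all autosomal 200 bp windows, in 33.1% of the shared HEK293T peaks and in 2.05% of the dual DU 145-only peaks. The peak with the most tags, 4810, was at chr8:46848879-46857750, with a fold of 3.78, and of the 10 peaks with the most tags, 9 were pericentromeric and 1 lay at chr2:89876063-89879044 with 982 tags.

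Telomeric repeats, the TTAGGG hexamers at chromosome ends, were less frequent in the HEK293T-only peaks than in the other sets. A tandem of at least 2 CCCTAA or TTAGGG hexamers was present in 1 of 1907 peaks (0.0524%, 0.00926 to 0.296), and in 47 of the 118 shared HEK293T peaks (39.8%), 111 of the 1169 dual DU 145-only peaks (9.5%) and 1.19% of the formaldehyde ones, while 0.00392% of autosomal 130 bp windows held one. The 1 peak lay 1 bp from a DU 145 peak and so lay at the edge of the rule. The rule placed 47 HEK293T peaks with this tandem in the shared set and left 1 here. The low share is therefore largely set by the rule. Polypurine or polypyrimidine runs of at least 30 bases with at least 20% G and C were present in 5 peaks (0.262%), against 0.45% of 130 bp windows, 8.81% of the dual and 2.27% of the formaldehyde DU 145-only peaks. A G-quadruplex motif, 4 runs of at least 3 G or C parted by 1 to 7 bases, was present in 57 (2.99%, 2.31 to 3.85), against 1.38% of 130 bp windows, 39.8% of the shared peaks, 14.7% of the dual and 2.63% of the formaldehyde DU 145-only peaks.

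Most of the peaks had low scores. The median fold was 13.81, the median number of tags 11 and the median length 130 bp, and 63.7% of the scores were under 60, where the lowest score listed was 50. The median FDR was 30.06%. The FDR was at most 5% for 300 peaks (15.7%, 14.2 to 17.4), of which 98 were pericentromeric and 79 in genes. The FDR did not fall steadily with the score, and the 8 highest scores, from 287.23 to 636.67, all had an FDR over 5%, with 33.33% at the highest. The shared HEK293T peaks had a median fold of 15.2 and 26 tags, with 50.8% at that FDR. The 10 highest folds went from 24.85 to 28.21. The highest was intergenic at chr10:109045347-109045446 with 12 tags, followed by chr4:132669860-132670031 in SNHG27 (27.61), whose summit occurred 14 times in the genome. The other 8 shared a fold of 24.85, at 9 to 19 tags, in or beside MAZ, TRAF7, RAB40C, PCGF3, MRPL20, CD68, CDK10 and SPEN. Of these, the RAB40C summit occurred 5 times in the genome. MAZ, a zinc finger transcription factor gene, had 19 tags and an FDR of 0.66%, the lowest of the set, which 1 other peak also had.

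**Figure D5:**
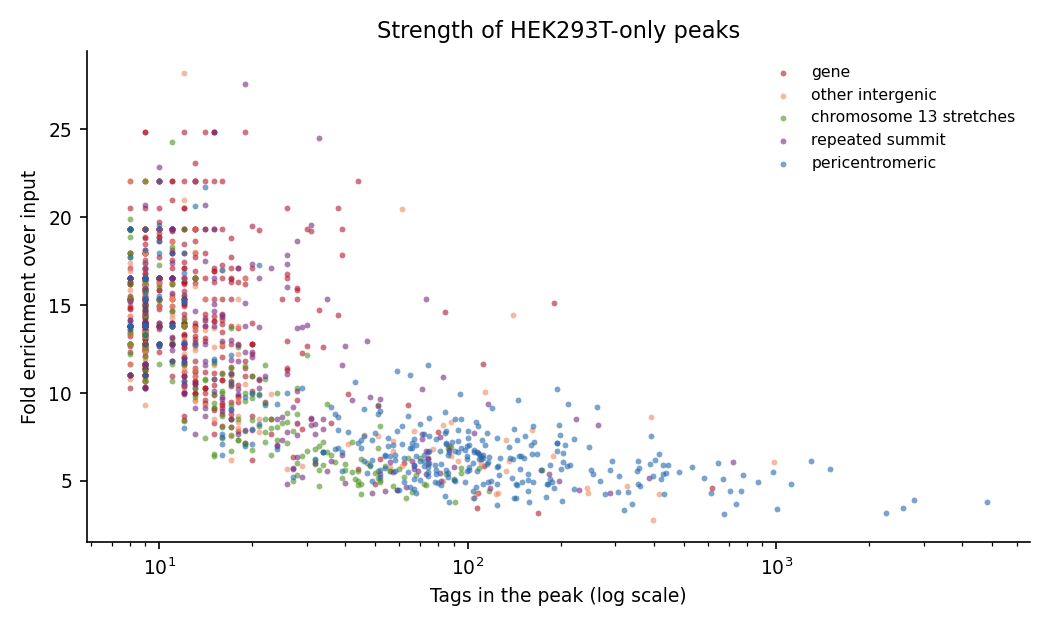
Fold enrichment over input against the number of tags (log scale) for each of the 1907 HEK293T-only peaks, coloured by group. Peaks in genes gather at a median of 9 tags and a fold of 14.25, and pericentromeric peaks at a median of 85 tags and a fold of 6.59.

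Among the other peaks named by rank, the promoter class also held CPNE7 (score 193.69, 33 tags), MAN1B1 (155.68, 80 tags) and FANCA (122.37, 26 tags), each over a transcript start other than the canonical one, 12371, 16020 and 70964 bp downstream of the canonical start. The CPNE7 and FANCA summits each occurred 3 times in the genome. The coding exon class also held ZNF891 (score 151.24), SLC3A2 (112.53) and DDX39B (94.84), an RNA helicase gene. After RPL13, the genes with the most peaks were MAPK8IP3 (8), the readthrough gene SENP3-EIF4A1 (7, of which EIF4A1 holds 5), SRCAP (6) and TSC2 (6). The 8 peaks of MAPK8IP3, a scaffold of JNK signalling, had folds from 11.09 to 16.48, and the 6 of TSC2, a tumour suppressor of the mTOR pathway, from 7.14 to 16.57.

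The distance of each member from the nearest DU 145 peak is given as a description. The same distances for other positions of the genome were not computed, so the members cannot be called near or far. The median gap was 165302 bp, and 1178 peaks (61.8%) were over 100 kb away. A gap of at most 10 kb was found for 235 peaks (12.3%). For 47 (2.46%) it was at most 1000 bp, 40 of these 47 being pericentromeric. Just inside the rule, the smallest gaps were 1, 44, 47, 50 and 58 bp, with folds of 16.57, 4.81, 5.63, 10.21 and 6.14. Just outside it, the smallest overlaps were 3, 15, 43, 52 and 52 bp, with folds of 8.4, 19.12, 5.41, 17.62 and 30.37.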

How the data were processed

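Per the labels and the methods of the study, SOLiD reads of 6 libraries were mapped to hg19 and the authors called peaks for each ChIP library against its input; the submitters' processing notes name MACS 1.4.2. The deposited lists give for each peak its position, tag counts, a score from the MACS p-value, the fold enrichment as a ratio over input, and an FDR in percent. How multiply mapping reads were handled is not stated, and library depth was not analysed here, since the lists hold tags in peaks only. From the deposited lists, overlaps (at least 1 shared base), base content and positions were computed with Python (3.11.15), pysam (0.24.0), scipy (1.17.1), pandas (2.3.3), numba (0.67.0) and numpy (2.4.6) on the GRCh37 sequence and GENCODE gene models lifted to that build; figures used matplotlib (3.10.9). Each midpoint was assigned in the order promoter, coding exon, other exon, intron, intergenic. Copy numbers are exact matches, on either strand, of 50 bases around the summit. Scripts were tested on simulated data. No test was made, since there are no replicates. The members and lists were chosen with earlier results of these data known. Named were the 10 members with the highest fold, the 10 with most tags, the 10 promoter and 5 coding exon members with the highest score, the 5 genes and 5 runs with most members, and for each list the genes with a promoter member, up to 5 by score; other genes, the SNHG list and the groups by location were chosen after values were seen. Alternatives are given in the closing section. Some genes, 1 gene list and 1 sequence are not reported here.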

Additional observations from a re-analysis of the deposited data

How the results depend on the processing

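Of 101 values recomputed under other settings, 54 stayed within the 95% interval of the value reported (1.5 times for counts) and 47 moved. No paired analysis was possible because each group has 1 sample and the labels give no replicate numbers. The overlap rule by midpoint (1912 peaks) and a distance of over 1000 bp from every DU 145 peak (1860) moved none of the shares or medians. Settings on the members without pericentromeric peaks or chromosome 13, canonical starts, and the ribosomal list were chosen after seeing the data. The cause of the moves was not tested.

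With an FDR of 5% or less, there were 300 peaks, with 9% in promoters, 2.67% in coding exons, 11% CpG-dense, 59% in runs, a median fold of 8.5 and 5 ribosomal protein genes. With a score of at least 100 there were 157 peaks, with 7.01% in promoters, 2.55% in coding exons, a median GC of 48.9%, 12.1% CpG-dense, 52.9% in runs, a median fold of 7.64 and 94.9% at that FDR, and chromosomes 19, 16 and 13 had 0.287, 0.254 and 0.0628 per Mb, beside 0.0585 over all autosomes. With a fold of at least 20 there were 56 peaks, with 21.4% in promoters, 8.93% in coding exons, a median GC of 49.4%, 7.14% CpG-dense, 7.14% in runs and 37.5% at that FDR. Merging members within 1000 bp left 35.2% in runs. With summits that occur once, 2.25% were CpG-dense, 44.1% in runs and 12.9% at that FDR.

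Without pericentromeric members, 13.3% were in promoters, the median GC was 50.4%, 42.4% were in runs and 12.8% were at that FDR. Without chromosome 13, 12.6% were in promoters and the median GC was 48.7%. The promoter share was 27.7% with 2000 bp on each side, 15.6% with starts of every biotype and 1.89% with canonical starts. The coding exon share was 6.55% by any base and 13.1% with exons of every biotype. Looser CpG limits gave 7.55%. Runs held 17.7% at 1 kb and 72.6% at 100 kb. At least 1 hexamer was present in 4.67%, beside 4.57% of autosomal 130 bp windows, and 36 bases around the summit were repeated in 23.1%. Over the full length, chromosomes 16 and 13 had 2.65 and 1.97 per Mb.

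Single peaks have no replicate check, and the placement of reads in repeated DNA and the depth of the libraries were not analysed here.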
